A study of Mus musculus with 12 samples.

Results

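The cytosolic ribosomal proteins are the protein subunits of the ribosome that translates messenger RNA in the cytoplasm. Their genes were chosen by symbol: every probe whose gene symbol in the platform annotation was Rpl or Rps followed by a digit, or Rplp0, Rplp1, Rplp2 or Rpsa, leaving out the ribosomal S6 kinases (Rps6k) and pseudogenes (-ps). The rule found 96 probes for 65 genes, among 45281 probes and 19053 named genes in all. Of the 65 genes, 25 encode small-subunit proteins and paralogues, 37 large-subunit proteins and paralogues, and 3 carry such a symbol without encoding a subunit (Rps19bp1, Rps23rg1 and Rpl7l1). Another 25 protein-coding genes of the RefSeq mouse table whose symbols fit the rule, among them Rpl5 and Rpl11, had no probe listed and were not analysed here.

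The samples were cultured adult cardiac myocytes from hearts of C57BL/6 mice aged 12 to 16 weeks, isolated by collagenase perfusion of the coronary vessels and plated on laminin. One group of 6 samples received CTGF (the recombinant form of connective tissue growth factor or CCN2, a secreted matricellular protein) at 200 nmol/L for 48 h, and the other 6 samples received none. All 12 shared the culture medium with 0.1% albumin, penicillin and 10 mmol/L butanedione monoxime (BDM), an inhibitor of contraction. RNA was measured on Illumina bead arrays with 1 colour. The labels do not say whether the samples came from separate hearts, so the p-values rest on a spread among samples that could be technical in part.

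Each ribosome carries close to 1 copy of each subunit protein, so their messenger RNAs are among the most abundant and most evenly expressed in a cell. In vertebrates these messenger RNAs typically begin with a cytidine followed by a run of pyrimidines, the 5′ terminal oligopyrimidine (TOP) motif, through which mTORC1 signalling and the binding protein LARP1 set their translation. In heart muscle, ribosome content is known to grow during hypertrophy, and a few genes have tissue-specific paralogues, of which Rpl3l in striated muscle is the best known.

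The start regions of members are shown because TOP transcripts are defined there. RefSeq promoters (GRCm38.p6) were found for 54 of the 65 genes. Each printed window runs from 15 bases before to 15 bases from the annotated start, so the start is the 16th base, and capitals mark a run of C and T. In Rps10, which fell with CTGF, and in 7 tested members that were not called, of which 5 are printed, a run of at least 5 pyrimidines began with C exactly at the start.
Rps10, chr17:27635230-27635259, minus strand: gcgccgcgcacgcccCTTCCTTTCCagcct
Rps6, chr4:86857353-86857382, minus strand: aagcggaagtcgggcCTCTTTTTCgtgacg
Rpl35, chr2:39005117-39005146, minus strand: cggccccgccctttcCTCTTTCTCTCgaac
Rpl38, chr11:114668565-114668594, plus strand: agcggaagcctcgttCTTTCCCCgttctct
Rpl28, chr7:4792950-4792979, plus strand: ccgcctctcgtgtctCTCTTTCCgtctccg
Rplp2, chr7:141447636-141447665, plus strand: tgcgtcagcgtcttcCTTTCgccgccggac

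In 4 other members that fell the start did not begin such a run. In Rpl7a a long run spanned the start, which was a T, in Rpl12 and Rpl22l1 a run lay just after it, and in Rps3a1 no run of 6 was in the window. The RefSeq start need not be the start used in these cells.
Rpl7a, chr2:26910792-26910821, plus strand: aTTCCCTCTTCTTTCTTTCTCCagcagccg
Rpl12, chr2:32961697-32961726, plus strand: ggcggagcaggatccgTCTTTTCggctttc
Rpl22l1, chr3:28805493-28805522, plus strand: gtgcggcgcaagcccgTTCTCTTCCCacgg
Rps3a1, chr3:86142654-86142683, minus strand: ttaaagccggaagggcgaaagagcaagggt

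The X-linked gene Rpl36a and its autosomal copy Rpl36al are shown because their probes differed in response, as described with the paralogues; neither window held a run of 6 pyrimidines.
Rpl36a, chrX:134585639-134585668, plus strand: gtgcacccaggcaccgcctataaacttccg
Rpl36al, chr12:69184053-69184082, minus strand: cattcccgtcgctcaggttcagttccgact

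A run of at least 5 pyrimidines beginning with C at the annotated start (C, then only C or T, on the gene's strand) was present for 9 of 54 members (16.7%), against 3.01% of all 27025 genes of the promoter table. A run of at least 6 C or T within 25 bases on either side was present for 37 of 54 (68.5%), against 47.8% of all genes. The wider count takes in the runs of the first. Among tested members with a promoter, the start run was found in 1 of 9 that fell, 0 of 4 that rose and 7 of 35 that were not called. The wider run was found in 5 of 9, 0 of 4 and 27 of 35. A match describes letters in a window and is not a mapped start. Of the 32851 starts listed for the 27025 genes, 19827 (60.4%) equalled the gene's start in the RefSeq gene table.

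Of the 65 genes, 57 passed the detection filter and were tested with limma (22 small subunit, 33 large subunit, and Rps19bp1 and Rpl7l1), and 56 of these were detected on all 12 arrays. The other 8 were Rpl6, Rpl14, Rpl17, Rpl39l, Rps20, Rps23, Rps23rg1 and Rpsa. Their probes were above background on none of the 12 arrays, except that of Rpl14 on 1 control array and the probes of Rps23rg1, 1 on 1 control array and the other on 1 CTGF array. Several of these encode core subunits that every ribosome needs, so their values describe the probes and do not show that the genes were silent. Many ribosomal protein genes have processed pseudogenes of nearly the same sequence, and a bead probe could bind transcripts of such copies. Levels of different probes are not compared with each other for the same reason.

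Across the arrays, 14747 to 16390 probes were detected, the lowest number on control replicate 1. Each array correlated with the mean of the rest of its group at 0.987 to 0.996. After quantile normalization, summed linear intensity over the 57 members was 798000 to 832000 with CTGF and 815000 to 835000 in controls. That step gives every array the same distribution, so such sums do not measure a total amount of RNA. Over all genes tested the sum was 8190000 to 8330000 with CTGF and 8190000 to 8340000 in controls. Slide positions are not given and all CTGF samples are numbered before all controls, so slide and treatment cannot be told apart. Values below are log2 intensities after background correction and quantile normalization, each an average over the beads of 1 probe, and a log2 fold change is CTGF minus control with its limma standard error (SE).

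With CTGF, 5 of 57 ribosomal protein genes rose and 12 fell at a limma adjusted p under 0.05, and 40 were not called. The median log2 fold change was -0.04 and the range -1.01 to 0.66. Over all 8905 genes tested, 25% were called higher and 21.6% lower, with a median of 0.03. The share of members that fell, 21.1%, was therefore close to the background, and the share that rose, 8.77%, was below it. Of the members, 24 lay within 0.1 of 0 on the log2 scale. Changes of at least 1.5-fold were called in 3 members, with Rps19bp1 higher and Rpl22l1 and Rps3a1 lower. At that threshold 684 of all 8905 genes were called higher and 867 lower. The sign of the median depended on the scaling between arrays: it was 0.04 with unscaled arrays (no normalization between arrays) and 0.02 under median scaling, where the median of all genes was 0.35 and 0.32, and -0.19 under 75th percentile scaling, where it was 0.11. With unscaled arrays and under median scaling, 3 of the 12 falls were still called (Rpl22l1, Rps3a1 and Rpl3l) and 9 were not.

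**Figure D1:**
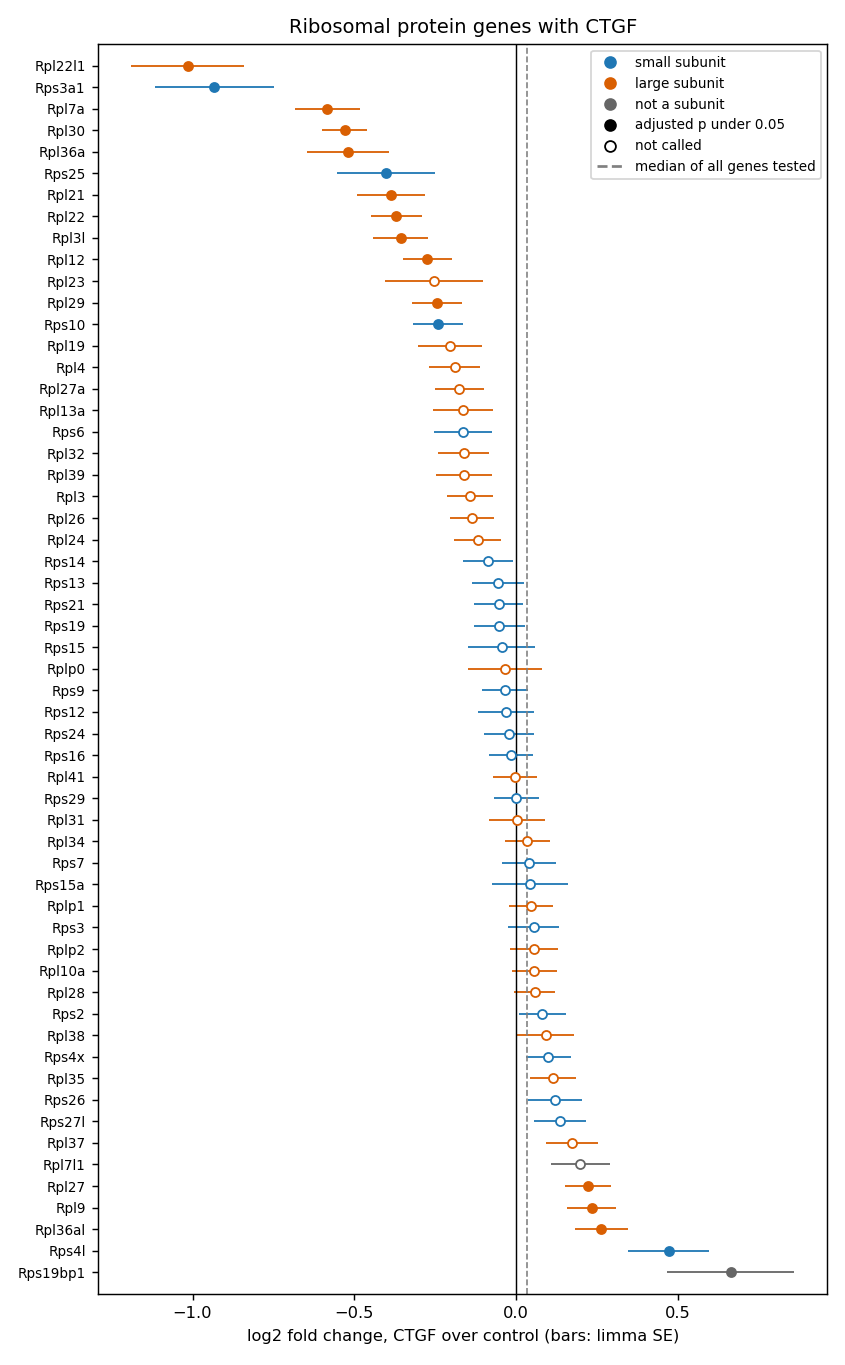
Log2 fold change of each tested ribosomal protein gene (CTGF minus control, with limma standard error bars), ordered by size, coloured by subunit and filled where called, with a dashed line at the median of all genes tested. Of the 57 genes 24 lie within 0.1 of 0, with 12 called falls down to -1.01 and 5 called rises up to 0.66, the highest being Rps19bp1, which is not a subunit.

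Of the 12 falls, 9 were in the large subunit. Of its 33 tested genes 9 fell and 3 rose, where 21.6% of all genes were lower and 25% higher, and their median was -0.14. With unscaled arrays 2 fell and 2 rose (median 0.02), under median scaling 2 fell and 1 rose (-0.01), under cyclic loess 13 fell and 2 rose (-0.18), and under 75th percentile scaling 14 fell and 0 rose (-0.22). Of 22 small-subunit genes 3 fell and 1 rose, with a median of -0.03, beside the same background. With unscaled arrays 1 fell and 1 rose (median 0.09), under median scaling 1 fell and 1 rose (0.06), under cyclic loess 2 fell and 1 rose (-0.05), and under 75th percentile scaling 8 fell and 1 rose (-0.15). The background moved with the scaling too. Of all 8905 genes tested, 4403 rose and 699 fell with unscaled arrays, and 4218 rose and 749 fell under median scaling. Under cyclic loess 1901 rose and 2205 fell, and under 75th percentile scaling 2992 rose and 1519 fell. The difference between the subunits was not tested.

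Among large-subunit genes, Rpl30, whose protein in yeast binds and represses the splicing of its own transcript, gave the smallest adjusted p of the members. Its lowest, median and highest log2 intensity were 9.39, 9.52 and 9.59 with CTGF and 9.93, 10.05 and 10.09 in controls. All CTGF arrays lay below all control arrays, and Rpl30 fell by 0.53 ± 0.07 on the log2 scale (SE, limma adjusted p = 1.67e-05). The call was lost with unscaled arrays (-0.12, limma adjusted p = 0.506) and under median scaling (-0.14, limma adjusted p = 0.405). A dimmer Rpl30 probe fell too, by 0.66 ± 0.15 (limma adjusted p = 0.00281 over probes).

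Rpl7a, a core protein of the large subunit, had lowest, median and highest log2 intensities of 10.11, 10.25 and 10.70 with CTGF and 10.73, 10.92 and 11.01 in controls. The groups did not overlap, although CTGF replicate 4 came close to control replicate 1. Rpl7a fell by 0.58 ± 0.10 on the log2 scale (SE, limma adjusted p = 0.000215), and was not called with unscaled arrays (-0.19, limma adjusted p = 0.254) or under median scaling (-0.22, limma adjusted p = 0.191).

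Rpl22 encodes an RNA-binding protein that is not required for general protein synthesis in mice and is needed there for the development of αβ T cells. Its log2 intensities were 9.41, 9.63 and 9.75 (lowest, median, highest) with CTGF and 9.89, 9.94 and 10.12 in controls, without overlap. It fell by 0.37 ± 0.08 on the log2 scale (SE, limma adjusted p = 0.00122). This direction turned with unscaled arrays (0.04) and under median scaling (0.02), and under 75th percentile scaling the fall was not called (-0.19).

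Rpl36a, the X-linked gene of a protein near the exit site for transfer RNA, ranged from 10.85 to 11.67 (median 11.10) with CTGF and from 11.39 to 11.86 (median 11.73) in controls. The groups overlapped through CTGF replicate 6, the highest of its group, and control replicate 1, the lowest of its own. Rpl36a fell by 0.52 ± 0.13 on the log2 scale (SE, limma adjusted p = 0.00336), and was not called with unscaled arrays (-0.19) or under median scaling (-0.21).

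Rpl21 was dim, with log2 intensities of 6.38 to 6.70 (median 6.44) with CTGF and 6.45 to 7.11 (median 6.92) in controls. Control replicate 2, at 6.45, lay among the CTGF arrays. Rpl21 fell by 0.39 ± 0.11 on the log2 scale (SE, limma adjusted p = 0.00729), while its other detected probes gave -0.20 and -0.02 and were not called. The call was lost with unscaled arrays (-0.0055, limma adjusted p = 0.977), under median scaling (-0.03), under 75th percentile scaling (-0.24) and with the mean of its probes.

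Rpl12, which with Rplp0 forms the base of the stalk where elongation factors bind, had log2 intensities of 12.89, 12.97 and 13.23 (lowest, median, highest) with CTGF and 13.18, 13.30 and 13.35 in controls. Only CTGF replicate 4 reached the control range. Rpl12 fell by 0.27 ± 0.08 on the log2 scale (SE, limma adjusted p = 0.00774), and was not called with unscaled arrays (-0.13) or under median scaling (-0.15).

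Rpl29, also studied as a heparin-binding protein at the cell surface, ranged from 11.91 to 12.36 with CTGF and from 12.34 to 12.39 in controls. The control arrays lay within 0.05 of each other and the highest CTGF array fell among them. Rpl29 fell by 0.24 ± 0.08 on the log2 scale (SE, limma adjusted p = 0.0174), and its dimmer probe gave -0.12 without a call.

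Rises in the large subunit were small. Rpl27, one of the genes mutated in Diamond-Blackfan anaemia, an inherited failure of red cell production, had log2 intensities of 14.00, 14.04 and 14.10 (lowest, median, highest) with CTGF and 13.71, 13.85 and 13.96 in controls. The groups did not overlap, and Rpl27 rose by 0.22 ± 0.07 (SE, limma adjusted p = 0.0179). Rpl9 ranged from 14.62 to 14.87 (median 14.84) with CTGF and from 14.47 to 14.71 (median 14.53) in controls, with overlap, and rose by 0.23 ± 0.08 (SE, limma adjusted p = 0.0195). Both rises depended on the scaling: neither was called with unscaled arrays or under median scaling (0.20 to 0.26), and under 75th percentile scaling Rpl27 gave 0.03 and Rpl9 turned to -0.01, neither called.

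In the small subunit the largest fall was that of Rps3a1, a core protein of that subunit. Its log2 intensities were 9.67, 9.89 and 10.78 (lowest, median, highest) with CTGF and 10.32, 11.05 and 11.23 in controls. CTGF replicate 6, at 10.78, and control replicate 1, at 10.32, lay within the range of the other group. Rps3a1 fell by 0.93 ± 0.18 on the log2 scale (SE, limma adjusted p = 0.000745), and by 1.06 without control replicate 1.

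Rps25, a protein that viral and some cellular internal ribosome entry sites require, ranged from 10.69 to 11.44 (median 11.08) with CTGF and from 11.09 to 11.82 (median 11.55) in controls. The groups overlapped broadly. Rps25 fell by 0.40 ± 0.15 on the log2 scale (SE, limma adjusted p = 0.0399), a call that was lost in 16 of 28 alternative settings and in 8 of the 12 that left out 1 array.

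Rps10, which sits near the messenger RNA entry channel and is another Diamond-Blackfan gene, had log2 intensities of 12.12, 12.33 and 12.35 (lowest, median, highest) with CTGF and 12.36, 12.50 and 12.64 in controls. The groups touched without overlapping, and Rps10 fell by 0.24 ± 0.08 (SE, limma adjusted p = 0.0180). Rps6, the substrate of the ribosomal S6 kinases, ranged from 11.54 to 11.89 with CTGF and from 11.65 to 11.95 in controls, a log2 fold change of -0.17 that was not called (limma adjusted p = 0.144).

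**Figure D2:**
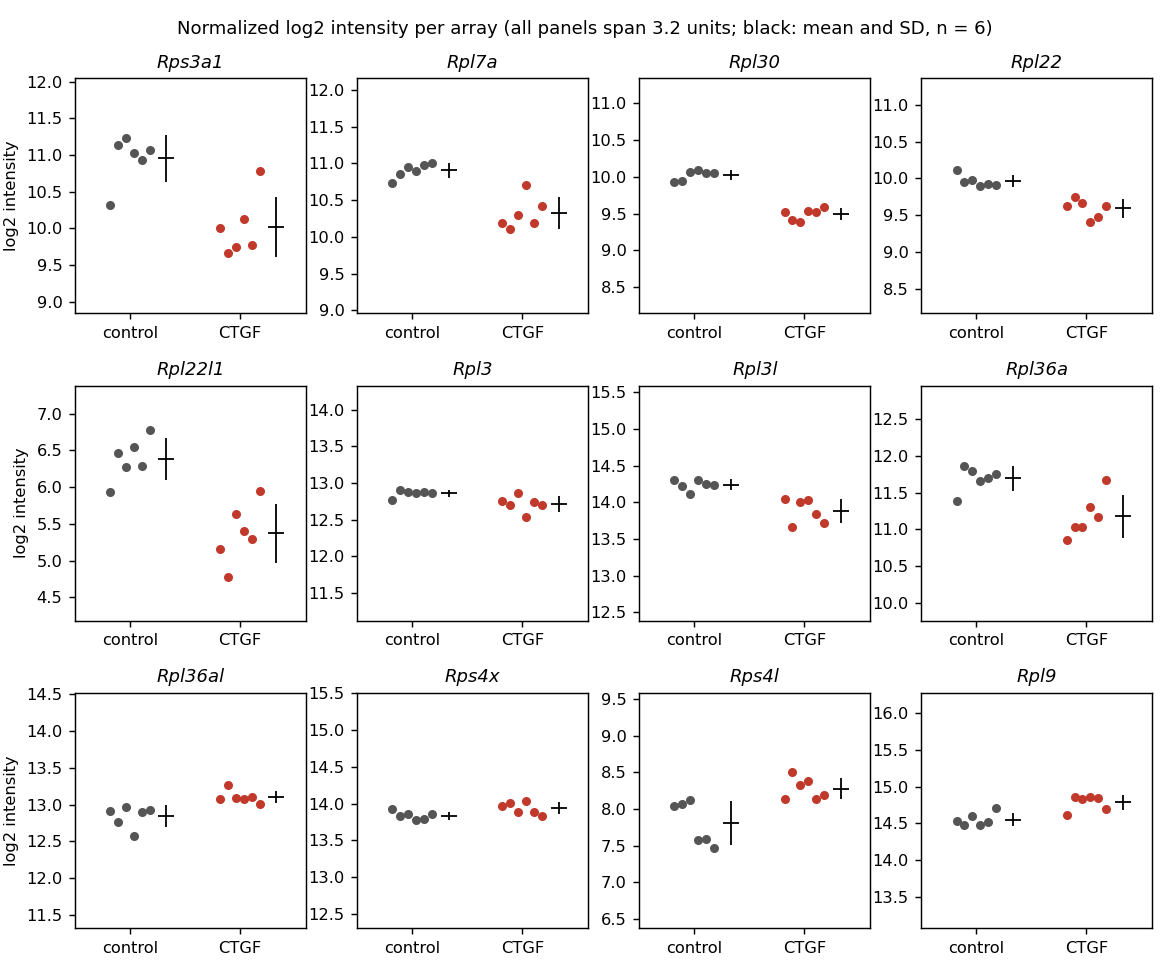
Log2 intensity of selected ribosomal protein genes on each of the 6 CTGF and 6 control arrays, 1 point per array, with the mean and SD of each group (n = 6) beside the points; all panels span the same number of log2 units. The arrays of Rpl30 do not overlap between groups, while those of Rps3a1 do through CTGF replicate 6 and control replicate 1.

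Non-overlap between the groups was rare among the members. All CTGF arrays lay below all control arrays for 5 members (Rpl30, Rpl7a, Rpl22, Rpl3l and Rps10; 8.77%), where 12.1% of all genes tested did so. All CTGF arrays lay above all controls for 3 members (Rpl27, Rpl36al and Rps4l; 5.26%), where 13% of all genes did so. Both shares were below the background.

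Several members shared the same deviating arrays. Control replicate 1 was the lowest control for Rpl22l1, Rps3a1, Rpl7a, Rpl36a and Rpl30, and it was also the array with the fewest detected probes. CTGF replicate 6 was the highest CTGF array for Rpl22l1, Rps3a1, Rpl36a and Rpl30. For Rpl22 the order differed, with control replicate 1 the highest of all at 10.12. Without control replicate 1, 14 members were called lower and 5 higher, where 1909 of all 8807 genes tested were lower and 2210 higher. Without CTGF replicate 6, 12 members were lower and 6 higher, where 1859 of all 8737 genes tested were lower and 2152 higher. Leaving out each of the 12 arrays in turn gave 11 to 15 members lower and 5 or 6 higher. Of the 8729 to 8818 genes tested in those fits, 1781 to 1909 were lower and 1991 to 2253 higher.

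The paralogues are genes derived from a core ribosomal protein gene and kept beside it. Of the 9 paralogues considered, 6 were measured, of which 2 rose (Rps4l and Rpl36al), 2 fell (Rpl22l1 and Rpl3l) and 2 were not called. The median of these 6 was 0.17. It was 0.12 to 0.35 under the other scalings, where the median of all genes was -0.01 to 0.35. Under quantile normalization 25% of all genes were called higher and 21.6% lower. In 4 pairs both the paralogue and its core gene could be compared array by array, and in each pair the difference between the probes differed between CTGF and control arrays (two-sided exact permutation test over all relabelings of the 12 arrays, adjusted over 4 pairs, smallest possible p 0.00216). In every pair the differences of the 2 groups overlapped.

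Rpl22l1, the paralogue that Rpl22 represses in mice, showed the largest fall of any member under the main processing. It was the dimmest of those called, detected on 5 of 6 CTGF arrays and all 6 controls. Its log2 intensities were 4.78, 5.35 and 5.94 (lowest, median, highest) with CTGF and 5.94, 6.38 and 6.78 in controls, where CTGF replicate 6 and control replicate 1 met. Rpl22l1 fell by 1.01 ± 0.17 on the log2 scale (SE, limma adjusted p = 0.000220). Over the 27 alternatives computed for this gene the log2 fold change lay between -1.12 and -0.53, and the call was kept in each. The probe difference Rpl22l1 minus Rpl22 was -4.22 ± 0.45 (SD, n = 6) with CTGF and -3.58 ± 0.36 in controls, a change of -0.64 ± 0.23 (SE, exact permutation adjusted p = 0.0289). Without background correction this change was -0.19 and its adjusted p 0.201 (exact permutation).

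Rpl3l replaces Rpl3 near the catalytic centre of ribosomes in heart and skeletal muscle. Its log2 intensities were 13.66, 13.92 and 14.04 (lowest, median, highest) with CTGF and 14.11, 14.24 and 14.31 in controls, without overlap. Rpl3l fell by 0.36 ± 0.09 on the log2 scale (SE, limma adjusted p = 0.00303), and its call and direction were kept under each of the 4 other scalings. Rpl3 had intensities of 12.54 to 12.86 with CTGF and 12.77 to 12.91 in controls and was not called (-0.14, limma adjusted p = 0.112). The probe difference Rpl3l minus Rpl3 moved by -0.21 ± 0.09 (SE, exact permutation adjusted p = 0.0476), and this call was lost in 9 of the 12 settings that left out 1 array, without background correction and in the authors' normalized values.

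Rpl36al is an autosomal copy of Rpl36a that encodes nearly the same protein. Its log2 intensities were 13.02, 13.08 and 13.27 (lowest, median, highest) with CTGF and 12.58, 12.91 and 12.97 in controls, without overlap. Rpl36al rose by 0.26 ± 0.08 (SE, limma adjusted p = 0.0164) where Rpl36a fell, and was not called under 75th percentile scaling (0.19, limma adjusted p = 0.140). The probe difference Rpl36al minus Rpl36a was 1.93 ± 0.34 (SD, n = 6) with CTGF and 1.15 ± 0.23 in controls, a change of 0.78 ± 0.17 (SE, exact permutation adjusted p = 0.0173). It lay between 0.61 and 0.90 in the 15 alternatives computed for it and kept its call in each.

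Rps4l, an Rps4-like gene of the mouse, rose by 0.47 ± 0.13 (SE, limma adjusted p = 0.00620), from 7.46, 7.81 and 8.12 (lowest, median, highest) in controls to 8.13, 8.26 and 8.50 with CTGF. Control replicates 4 to 6 lay between 7.46 and 7.59 and control replicates 1 to 3 between 8.04 and 8.12, close to the CTGF arrays. Its X-linked core gene Rps4x ranged from 13.83 to 14.04 with CTGF and from 13.78 to 13.92 in controls and was not called. The probe difference Rps4l minus Rps4x moved by 0.37 ± 0.12 (SE, exact permutation adjusted p = 0.0216).

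Rps27l, a paralogue of Rps27 that p53 induces, ranged from 13.22 to 13.56 with CTGF and from 13.09 to 13.33 in controls, and its log2 fold change of 0.13 was not called (limma adjusted p = 0.184). Rpl7l1, which belongs to ribosome assembly in the nucleolus, gave 0.20 without a call (limma adjusted p = 0.0892). Its dimmer probe gave -0.32 without a call, and the mean of both probes -0.06.

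Rps19bp1 is not a subunit. It encodes AROS, a protein that binds Rps19 and activates the deacetylase SIRT1. Its log2 intensities were 6.32, 7.29 and 7.39 (lowest, median, highest) with CTGF and 5.77, 6.64 and 6.74 in controls. CTGF replicate 1, at 6.32, lay among the controls and the other CTGF arrays above them. Rps19bp1 rose by 0.66 ± 0.20 (SE, limma adjusted p = 0.0121).

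The stalk proteins Rplp0, Rplp1 and Rplp2, acidic proteins that recruit elongation factors, were not called. Rplp0 is often used as a reference gene. Its one detected probe was dim, with lowest, median and highest values of 7.06, 7.39 and 7.53 with CTGF and 7.03, 7.39 and 7.65 in controls, a log2 fold change of -0.04 ± 0.11 (SE). Rplp1 had a median of 15.85 with CTGF and 15.78 in controls (log2 fold change 0.04), and Rplp2 of 14.52 and 14.44 (0.05). Scaling mattered here too, since Rplp0 gave 0.37 with unscaled arrays (limma adjusted p = 0.0445) and Rplp1 gave -0.25 under 75th percentile scaling (limma adjusted p = 0.0265).

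Among the other members that were not called, those with the lowest values were Rpl23 (-0.25), Rpl19 (-0.20), Rpl4 (-0.19) and Rpl27a (-0.18), and those with the highest were Rpl37 (0.17), Rps26 (0.12) and Rpl35 (0.11). For Rpl23 (limma adjusted p = 0.186) 1 array in each group stood low, CTGF replicate 1 at 13.82 and control replicate 6 at 14.01, while the others lay between 14.40 and 14.88. Rpl41, Rps29 and Rpl31 had log2 fold changes of 0.00 to 2 decimals.

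The brightest small-subunit members stayed within narrow ranges. Rps2, a protein near the entry of the messenger RNA, ranged from 15.70 to 15.97 with CTGF and from 15.65 to 15.89 in controls, and Rps29 from 15.45 to 15.57 and from 15.37 to 15.63. Rps24, mutated in Diamond-Blackfan anaemia, had medians of 15.20 and 15.22, with a log2 fold change of -0.02 (limma adjusted p = 0.835). For each of these the CTGF and control arrays overlapped.

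Rps19, the gene most often mutated in that anaemia, had medians of 13.81 with CTGF and 13.80 in controls, a log2 fold change of -0.05 (limma adjusted p = 0.608). Rps14, whose loss marks a human myelodysplastic syndrome, had medians of 14.41 and 14.53 (-0.09, limma adjusted p = 0.375). Rps3, which also takes part in DNA repair, had medians of 13.50 and 13.36 (0.05), while its dimmer probe gave -0.20 without a call. Rps7, Rps9, Rps12, Rps13, Rps15, Rps15a, Rps16 and Rps21 all had log2 fold changes between -0.06 and 0.04 without a call.

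Several large-subunit members that were not called lay on 1 side. Rpl4, which lines the exit tunnel of the growing chain, ranged from 9.19 to 9.53 with CTGF and from 9.41 to 9.65 in controls (limma adjusted p = 0.0579). Rpl13a, which also represses inflammatory transcripts outside the ribosome, had medians of 9.69 and 9.81 (-0.17, limma adjusted p = 0.159). Rpl39, another protein of the exit tunnel, had medians of 14.23 and 14.47 (-0.16). Rpl32 and Rpl26 gave -0.16 and -0.14, and Rpl24, the gene of the mouse mutant belly spot and tail, -0.12.

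Rpl38, whose loss in mice alters the skeletal pattern, had medians of 15.32 with CTGF and 15.27 in controls (0.09, limma adjusted p = 0.425). Rpl10a, Rpl28 and Rpl34 gave 0.06, 0.06 and 0.03. The groups of all these genes overlapped.

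Of the 19 Diamond-Blackfan genes considered 10 were measured, with Rpl27 higher, Rps10 lower and 8 not called. Over all genes tested, 25% rose and 21.6% fell. The median of these 10 was 0.02. It was -0.01 under cyclic loess and -0.18 under 75th percentile scaling, where that of all genes was -0.01 and 0.11.

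Calls depended on how bright a probe was. Of 40 members with a mean log2 intensity of at least 12, 3 rose and 4 fell (17.5% called), with a median of -0.01. Of all 350 genes this bright, 66 rose and 59 fell (35.7% called), with a median of 0.02. Of 17 dimmer members, 2 rose and 8 fell (58.8% called), with a median of -0.20. Of all 8555 dimmer genes, 2162 rose and 1866 fell (47.1% called), with a median of 0.04. The median SE was 0.08 for bright members and 0.11 for dim ones.

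Bright probes were near the top of the scale. On average 8 member probes exceeded 50% of the brightest probe of their array, with Rplp1 at 90.7%, Rpl41 at 89.6% and Rps2 at 89.3%. Quantile normalization ties the top of every array to the same values, and whether this bears on the fold changes of bright members was not tested.

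**Figure D3:**
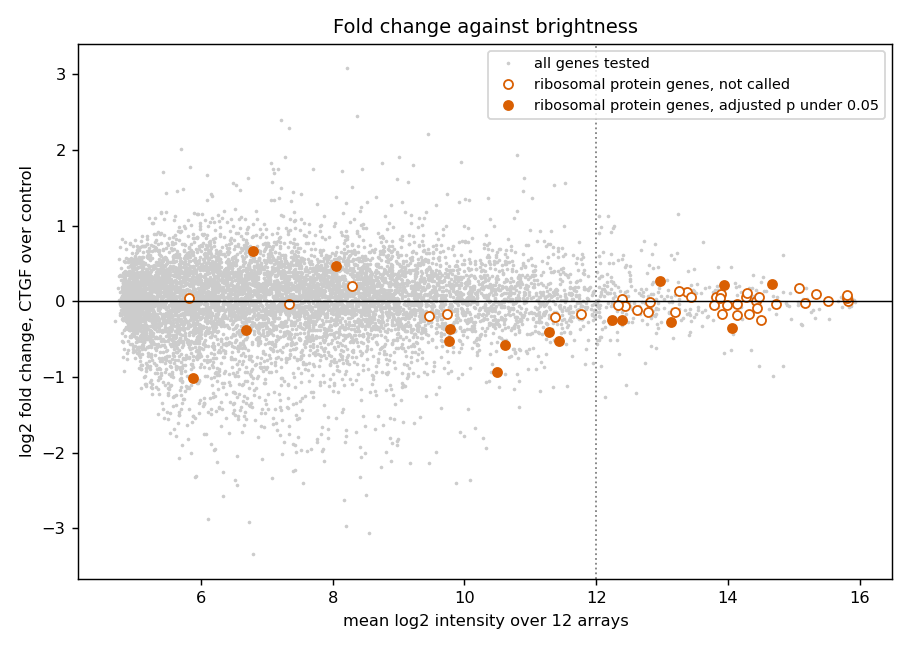
Log2 fold change (CTGF minus control) against mean log2 intensity for all 8905 genes, with ribosomal protein genes marked and a line at a mean log2 intensity of 12. The 40 members to the right of the line scatter around 0 (median -0.01), and the 17 to the left lie lower (median -0.20).

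Probes of the same gene did not always give the same value. Over probes, 6 of 77 tested member probes were higher and 18 lower, where 23.8% of all 15038 tested probes were called higher and 19.7% lower. Of 15 members with several tested probes, none had probes called in both directions. Their 20 dimmer probes included 6 called lower and 1 called higher, and 12 of the 20 had a lower fold change than the brightest probe of the gene.

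Rpl31 showed the widest gap. Its brightest probe, with a mean of 14.43, had a log2 fold change of 0.00. Its dimmer probes, with means of 8.01 and 8.20, fell by 0.57 ± 0.09 and by 0.56 ± 0.09 on the log2 scale (SE, limma adjusted p = 0.000105 and 0.000227 over probes). For Rpl27a the brightest probe (mean 14.13) gave -0.18 and a dim one (8.98) fell by 0.50 ± 0.09 (limma adjusted p = 0.000403), while the third probe gave -0.10. For Rpl23 a dim probe (8.50) fell by 0.46 ± 0.07 (limma adjusted p = 9.02e-05) and a bright one gave -0.12.

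Rps24 had its brightest probe at 15.17 with a log2 fold change of -0.02, and a dim probe at 7.15 that fell by 0.23 ± 0.09 (limma adjusted p = 0.0468). For Rps2 both probes were bright, and the one with a mean of 15.30 rose by 0.34 ± 0.08 (limma adjusted p = 0.00402) where the brightest, at 15.80, gave 0.08. A dimmer probe may sit on another transcript form or a copy of the gene, and which it is was not tested.

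**Figure D4:**
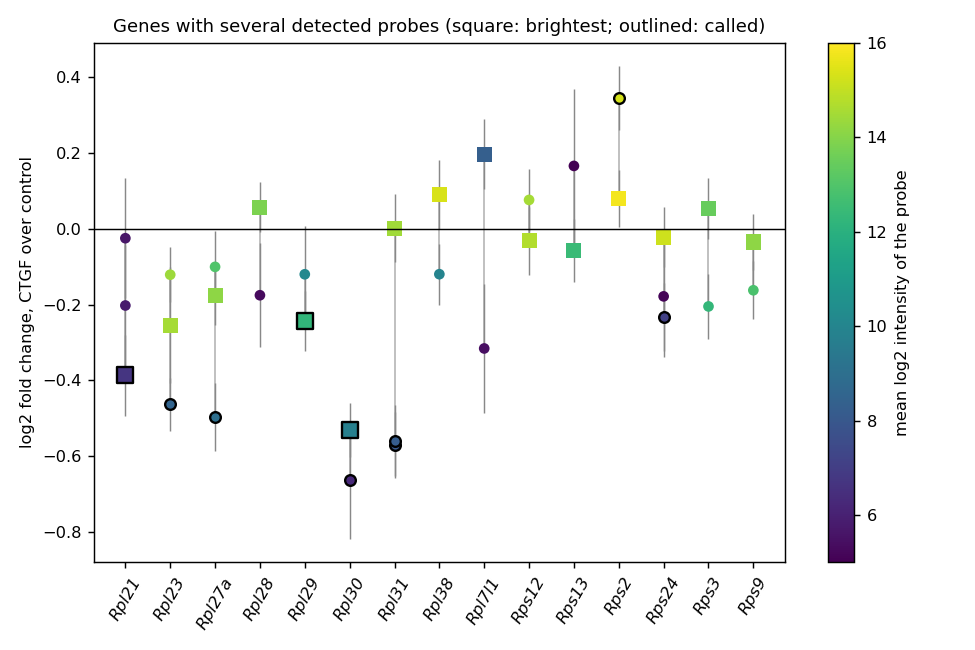
Log2 fold change (CTGF minus control, with limma standard error bars) of every tested probe of the 15 ribosomal protein genes with several, by gene on the x axis. Squares are the brightest probe of each gene, colour gives the mean log2 intensity and outlined points were called. The dimmer probes of Rpl31 at -0.57 and -0.56 lie far from its brightest probe at 0.00.

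Genes that work with ribosomal proteins were counted for comparison. Of 54 ribosome biogenesis genes 44 were measured, of which 16 rose and 3 fell, where 25% of all genes rose and 21.6% fell. Over the other scalings 12 to 28 rose and 1 to 4 fell, where 1901 to 4403 of all 8905 genes rose and 699 to 2205 fell. The median of the biogenesis genes was 0.19. It ranged from 0.16 to 0.59 over the other scalings, where the median of all genes was itself -0.01 to 0.35. Nip7, an assembly factor of the large subunit, rose by 0.68 ± 0.08 (SE, limma adjusted p = 3.40e-06). Pes1, of the complex that processes large-subunit ribosomal RNA, fell by 0.87 ± 0.09 (SE, limma adjusted p = 1.16e-06), and Nop56, of the particle that methylates ribosomal RNA, fell by 0.66 ± 0.14 (SE, limma adjusted p = 0.00106) and was not called with unscaled arrays (-0.21) or under median scaling (-0.24).

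Of 30 other TOP transcripts, which encode mostly translation factors, 22 were measured. None rose and 9 fell, where 25% of all genes rose and 21.6% fell, and the median was -0.16. With unscaled arrays and under median scaling 4 rose and 1 fell, and the median of the list was 0.05 and 0.03. There the median of all genes was 0.35 and 0.32, and 4403 and 4218 of all 8905 genes rose. Eif3k, a subunit of an initiation factor, fell by 0.66 ± 0.12 (SE, limma adjusted p = 0.000313), and Pabpc1, the poly(A)-binding protein, fell by 0.63 ± 0.14 (SE, limma adjusted p = 0.00182). Neither was called with unscaled arrays (-0.26 each) or under median scaling. Vim, the intermediate filament gene of mesenchymal and endothelial cells, fell by 0.92 ± 0.09 (SE, limma adjusted p = 1.10e-06).

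Of 12 chaperones and escorts of ribosomal proteins 10 were measured, with 2 higher and 2 lower, where 25% of all genes rose and 21.6% fell. Their median was 0.00. It lay between -0.03 and 0.40 over the other scalings, where the median of all genes was -0.01 to 0.35. Ltv1, an export factor of the small subunit counted with biogenesis too, rose by 0.60 ± 0.15 (SE, limma adjusted p = 0.00445). Naca, which binds nascent chains and was counted with TOP transcripts too, fell by 0.52 ± 0.09 (SE, limma adjusted p = 0.000178) and was not called with unscaled arrays (-0.27) or under median scaling. Pdcd2, which escorts Rps2, fell by 0.33 on the log2 scale (limma adjusted p = 0.00384), but gave 0.10 with unscaled arrays and 0.08 under median scaling.

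Of 23 regulators of ribosomal protein synthesis 17 were measured, with 6 higher and 2 lower, where 25% of all genes rose and 21.6% fell. Their median was 0.19 and positive under each scaling, where the median of all genes lay between -0.01 and 0.35. Myc, which activates ribosome genes, rose by 0.57 ± 0.15 (SE, limma adjusted p = 0.00559). Mxi1, a Myc antagonist, fell by 0.97 ± 0.20 (SE, limma adjusted p = 0.000914), and the translation repressor gene Eif4ebp1 rose by 0.51 ± 0.10 (SE, limma adjusted p = 0.000778). Larp1, which binds TOP transcripts, rose by 0.32 ± 0.10 (SE, limma adjusted p = 0.0210).

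Free ribosomal proteins are known to bind Mdm2, which otherwise marks p53 for degradation. Of 11 genes of this checkpoint 7 were measured, with 3 higher and none lower, where 25% of all genes rose and 21.6% fell. Their median, which takes in Mdm4, was 0.27 and positive under each scaling, where the median of all genes lay between -0.01 and 0.35. The median was not computed without Mdm4. The other measured genes of the list had log2 fold changes of 0.02 to 0.68. Mdm2 rose by 0.68 ± 0.09 (SE, limma adjusted p = 1.94e-05) and Phlda3, a p53 target, by 0.30 ± 0.08 (SE, limma adjusted p = 0.00437). Mdm4, counted among the 3 rises and in the median, was below the detection level on all 6 control arrays. Mdm4 passed the filter only through the CTGF arrays. Its call (limma adjusted p = 3.04e-06) rests on control values below detection. Set against the dimmest detected probe of each control array, its level with CTGF was at least 1.38-fold higher, a bound that was not tested. Cdkn1a, the p53 target that encodes p21, gave 0.09 and was not called.

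**Figure D5:**
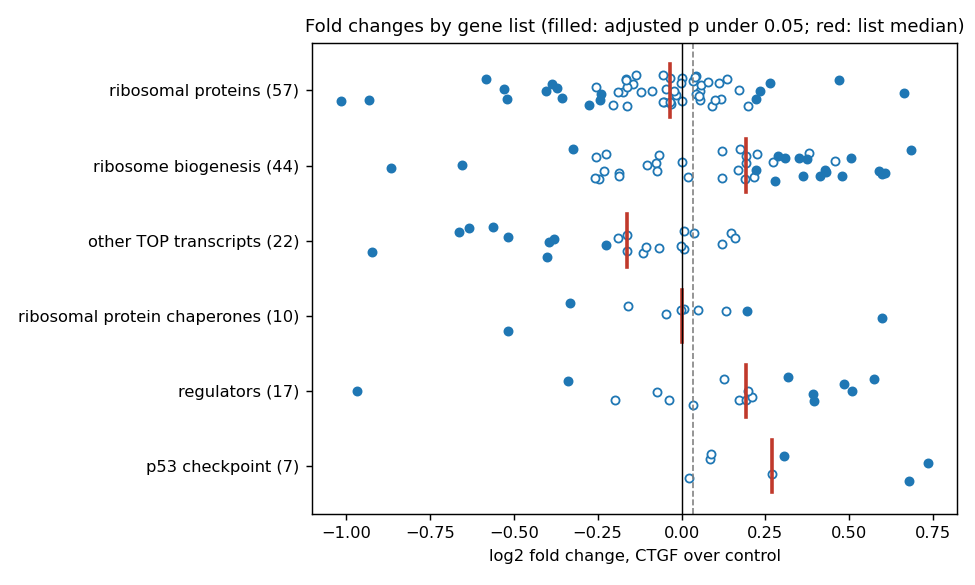
Log2 fold change (CTGF minus control) of each measured gene by list, filled where called, with list medians in red and a dashed line at the median of all genes tested. The ribosomal protein genes centre near 0 (median -0.04), the biogenesis genes above it (0.19) and the other TOP transcripts below it (-0.16).

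Markers of several cell types differed between the groups. Over all genes tested, 25% were called higher and 21.6% lower. Of 10 cardiac myocyte markers 9 were measured, with 3 lower, none higher and a summed linear intensity of 198000 to 226000 with CTGF and 221000 to 235000 in controls. All 8 measured endothelial markers of 10 were lower, with a median of -1.73 and a summed intensity of 1740 to 2070 against 6140 to 7570. Of 7 measured fibroblast markers of 8, 4 were lower (summed 5180 to 6050 against 4180 to 7420). The 3 not called were Col1a2 (0.33), Lum (0.14) and Dcn (-0.14). With unscaled arrays 2 fibroblast markers were higher and 3 lower, and under median scaling 2 were higher and 4 lower. Of 6 measured smooth muscle and pericyte markers of 8, 5 were lower and 1 higher (summed 2690 to 3260 against 4560 to 5220). Of 7 macrophage markers 3 were measured, with 1 lower (summed 84.0 to 106 against 89.6 to 142), and no lymphocyte or erythroid marker passed the filter. Their part in the values of the ribosomal protein genes was not tested, and in such mixed RNA fewer cells of a type and less RNA per cell cannot be told apart.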

How the data were processed

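Per the labels' protocols, total RNA of 6 CTGF and 6 control samples was amplified to biotin-labelled RNA and hybridised to Illumina bead arrays. The authors deposited intensity per probe and array, not normalized, with a detection p-value each, per the file headers, and a second table of normalized intensity, used as an alternative. Which scanner software was used is not given in the sources used here. No column belonged to other samples (0).

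Groups came from sample titles. Raw intensities were background-corrected from the deposited detection p-values (offset 16), quantile normalized and converted to log2 with limma 3.58.1 (R 4.3.3). Probes with a detection p under 0.05 on 6 or more arrays were kept (15038), and each of 8905 genes was represented by its brightest probe with 1 symbol. Of 45281 probes, 34885 had 1 symbol in the platform annotation, 18 several, and 10378 are unnamed here because the annotation did not list them. Symbols were updated through the RefSeq gene table (GRCm38.p6), none among the members. The 2 groups were tested in limma (lmFit, eBayes; two-sided), and p-values were adjusted over all genes, or all probes, by Benjamini-Hochberg with a threshold of 0.05. Paralogue pairs were compared by exact permutation. The fit and the permutation test were tested on simulated data. The number of arrays limits the precision.

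Replicate numbers did not pair the samples: deviations of same-numbered samples correlated at -0.05 to 0.03. No 2 arrays were identical, and correlations between arrays were 0.956 to 0.995.

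The members, lists and tests were chosen with earlier results of these data known. Named genes were the measured paralogues, Rps19bp1, the stalk genes, the 10 largest rises and falls among called members, members with probes called in both directions, and 3 called genes of each other list. Other members, Larp1, Cdkn1a and Rpl29 and Rps10 were named after their values were seen. Alternatives were other background corrections, scalings, filters, probe summaries, variance models, thresholds, a term for the replicate number (replicate block) and fits without 1 array. The brightness split, the wider promoter window and the comparison of dimmer probes were added after seeing the data.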

Additional observations from a re-analysis of the deposited data

Results flagged for a closer look

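Of 70 groups of 6 arrays checked for the named genes, 7 had 1 array far from the others by Dixon's test of the gap to the nearest array, where chance gives about 1 in 20 groups. Control replicate 1 was lowest for Rps3a1, at a log2 intensity of 10.32 with the next control at 10.93, and the log2 fold change without it was -1.06. The same array was highest for Rpl22, at 10.12 against 9.98 for the next control, and the log2 fold change without it was -0.34. CTGF replicate 1 was lowest for Rps19bp1, at 6.32 against 7.06, with a log2 fold change of 0.82 without it. CTGF replicate 2 was highest for Rpl36al, at 13.27 against 13.11, with 0.23 without it, and for Vim, at 9.38 against 9.05, with -0.99 without it. CTGF replicate 4 was highest for Rps27l, at 13.56 against 13.34, with 0.08 without it. CTGF replicate 6 was lowest for Nip7, at 8.77 against 8.97, with 0.73 without it.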

How the results depend on the processing

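Both the scaling between arrays and the threshold moved the member counts. Members called higher were 5 with unscaled arrays (not normalized between arrays), 4 under median scaling and 3 when set to the 75th percentile. Members called lower, 12 under quantile normalization, were 3 with unscaled arrays, 3 under median scaling and 22 under 75th percentile scaling, and member probes called lower were 3 under each of the first 2. With unscaled arrays, median scaling and 75th percentile scaling, 699, 749 and 1519 of all 8905 genes were lower and 4403, 4218 and 2992 higher. The 3 members that stayed lower with unscaled arrays and under median scaling were Rpl22l1, Rps3a1 and Rpl3l. The median was 0.043 with unscaled arrays, 0.018 under median scaling, -0.077 under cyclic loess, -0.19 under 75th percentile scaling, -0.0097 among genes with a mean of at least 12, -0.059 with the mean of probes and -0.062 to -0.018 leaving out 1 array. The median of the members minus that of all genes was -0.07 under quantile normalization and -0.30 under the 3 scalings that shift each array by a constant. At an adjusted p under 0.01 (limma) 1 member was higher and 9 lower, where 1564 of all 8905 genes were higher and 1424 lower. At 1.5-fold 1 member was higher and 2 lower, where 684 of all genes were higher and 867 lower. With a replicate block 4 members were higher and 12 lower, where 2104 of all genes were higher and 1835 lower. The replicate numbers share only a number here, since 0 of 6 CTGF arrays correlated best with the control of their own number.

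For Rpl22l1 minus Rpl22 the change was -0.19 without background correction and -0.19 in the authors' values, and -0.78 to -0.49 leaving out 1 array, with the call lost without CTGF replicate 2 (exact permutation adjusted p = 0.0577). For Rpl3l minus Rpl3 it was -0.21 without background correction and -0.21 in the authors' values, with the call lost in both (exact permutation adjusted p = 0.0635), and -0.28 to -0.17 leaving out 1 array. For Rps4l minus Rps4x it was 0.30 to 0.43 leaving out 1 array, with the call lost without CTGF replicate 2. Over all 15 alternatives computed for this pair it was 0.29 to 0.76. Directions turned for Rpl22 (0.043 and 0.018) and Pdcd2 (0.10 and 0.077) with unscaled arrays and under median scaling, for Rpl9 under 75th percentile scaling (-0.012) and for Rpl7l1 with the mean of probes (-0.06). The cause was not tested. Rpl22l1 was detected on 5 of 6 CTGF arrays.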
